A study of Mus musculus with 2 samples.

Results

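The cytosolic ribosomal protein genes described here were chosen by symbol from the array's annotation. A gene was taken where at least 1 transcript cluster, the array's unit for a gene-level signal, carried its symbol alone, and the cluster with the highest mean over both arrays stood for the gene. The rule gave 61 of 19938 genes. Of these, 54 encode canonical ribosomal proteins, 21 of the small and 33 of the large subunit, and 7 are paralogs, related copies that are described apart. The canonical proteins of the mouse number 79 in the list used, so 25 of them are not members. For 16 of these 25, such as Rpl11, Rps24 and Rps26, every cluster also listed the symbol of another gene. Fau was measured but its symbol lies outside the rule, and the others were not analysed here.

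The series holds 2 arrays, 1 per genotype, of total RNA from mouse splenic T cells sorted for high TCRbeta and CD4 and enriched for naive cells by low surface CD44. Mice of the knockout group, labelled Taf7 -/-, had the genotype TAF7f/- with the 8EIII-cre transgene, and those of the heterozygous group, labelled Taf7 +/-, were TAF7 f/- without cre. Both groups therefore carried 1 floxed and 1 null Taf7 allele on a mixed background of C57/BL6 and 129 strains, and the heterozygote is not a wild type control. The sources used here do not give the number or the age of the animals behind each array. Values are log2 signals, and a difference is the knockout array minus the heterozygous array. With 1 array per genotype, no difference has a replicate check, no test was possible, and the error between animals is unknown.

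The ribosome is built from a small subunit, which binds the mRNA and reads its codons, and a large subunit, which joins the amino acids, and each carries its own set of proteins around ribosomal RNA. Ribosomal protein mRNAs are among the most abundant in lymphocytes, and naive T cells raise ribosome production when they are activated. Most of these mRNAs start with a short pyrimidine stretch, the terminal oligopyrimidine tract, through which mTOR signalling controls their translation. Taf7 belongs to TFIID, the complex that binds core promoters and helps RNA polymerase II to start transcription.

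Below, the heterozygous value always comes first and the knockout value follows. Taf7 itself was at 8.34 and 7.79, which is -0.55. The median over all clusters was 7.68 and 7.75. Among CD4 T cell markers 7 of 9 were measured, and their signals were 11.56 to 13.54 in the heterozygote and 11.06 to 13.50 in the knockout. Of these 7 markers 5 were lower in the knockout, with differences of -0.50 for Cd3d, -0.42 for Cd28, -0.22 for Cd4, -0.22 for Il7r and -0.11 for Ccr7, and the median of the 7 was -0.22. A filter asked for a mean of both arrays of at least 7.71, the 50th percentile of all clusters, called the minimum signal below. It was reached by 0 of 4 myeloid, 0 of 2 natural killer cell, 0 of 1 measured erythroid and 1 of 3 measured B cell markers. The myeloid marker Itgam was at 7.83 and 7.04 (-0.79), above the minimum in the heterozygote alone. Cd8b1, a chain of CD8, was at 10.50 and 10.24 and Cd8a was below the minimum. A list of 8 genes of regulatory and activated T cells (Cd44, Foxp3, Ctla4, Il2ra, Ikzf2, Nrp1, Izumo1r and Icos), made after values had been seen, was lower in the knockout in 8 of 8, with differences from -1.67 to -0.66, and their summed signal was 13.79 and 12.80 on the log2 scale. Nrp1, the lowest, was below the minimum in the knockout, and the other 7 differed by -1.50 to -0.66. The part of these marker differences in the ribosomal protein values below was not tested, and in bulk RNA fewer cells of a type and less RNA per cell cannot be told apart.

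Most cytosolic ribosomal protein genes had slightly lower signals in the knockout array. All 54 canonical genes exceeded the minimum signal, and 49 of them (90.7%) were lower in the knockout, where 59.1% of the 10457 genes above the minimum were lower. Their median difference was -0.22, with the middle quartiles from -0.29 to -0.10, beside a median of -0.05 and quartiles from -0.20 to 0.10 over all genes. With the 5 paralogs above the minimum added, 52 of 59 (88.1%) were lower. Rplp2 and the paralog Rpl10l passed through the heterozygous array alone, and among genes at or above the minimum in both arrays 48 of 53 canonical genes (median -0.22) and 50 of 57 members were lower, beside 60.6% of 10021 genes. After quantile normalization of both arrays this count was 45 of 59 (76.3%), beside 48.2% of all genes. Under every scaling tried (centring, loess and quantile normalization) the medians of both subunits stayed below 0, but Rps2, Rps18, Rplp0, Rpl10a, Rpl26 and Rpl27, all within 0.06 of 0, turned higher under at least 1 of them.

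**Figure D1:**
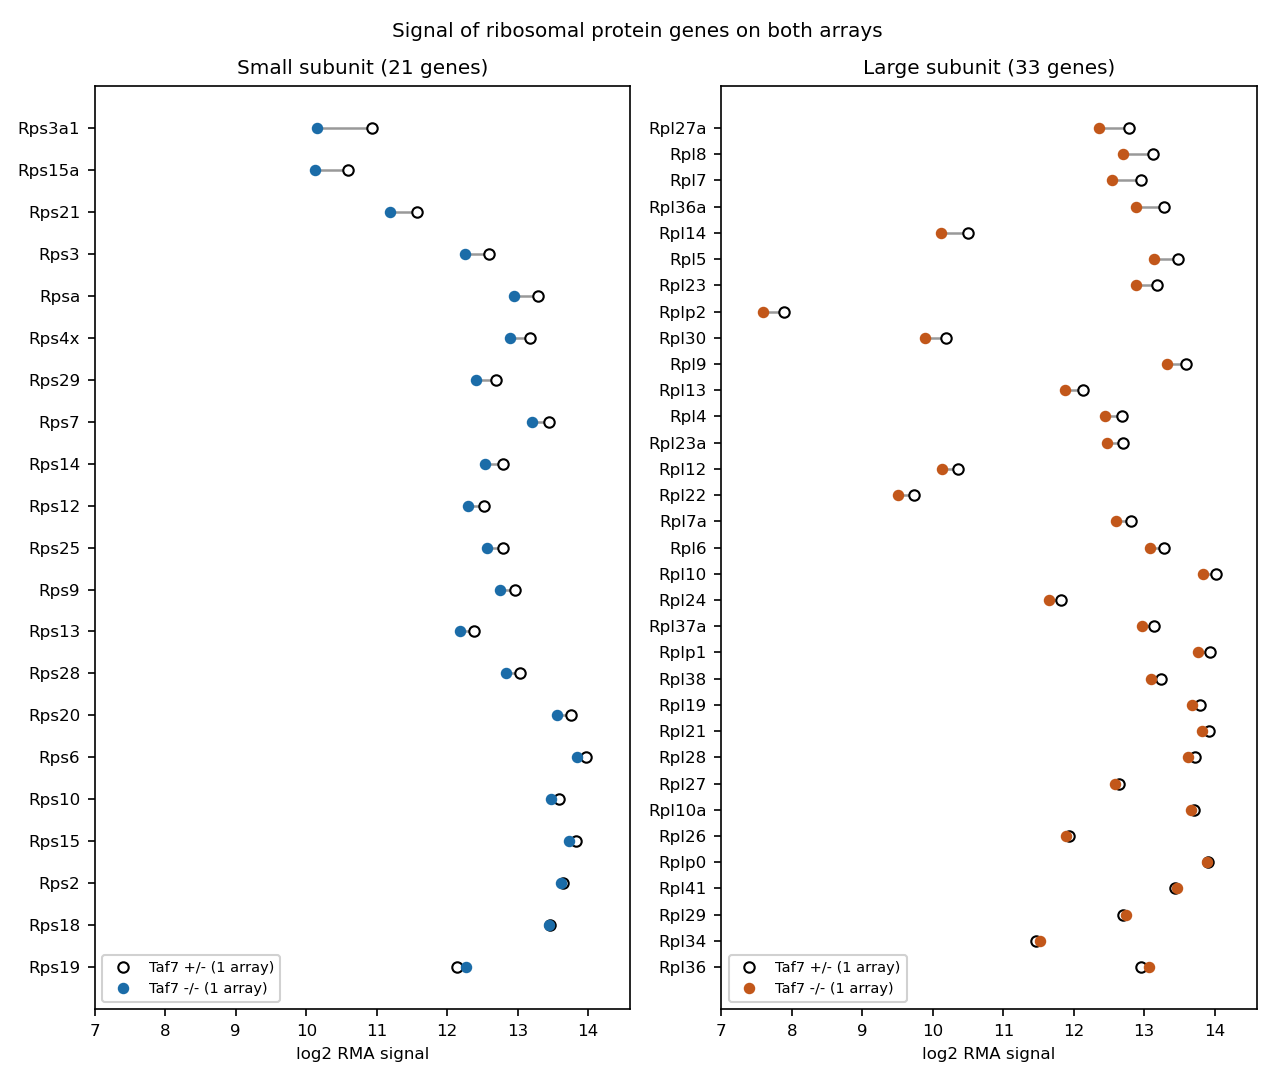
log2 signal (horizontal axis) of each canonical ribosomal protein gene of the small (left) and large (right) subunit, sorted by difference, with 1 array per genotype. Open points are the heterozygous array and filled points the knockout array, joined by a line for each gene. In 49 of the 54 genes the knockout point lies to the left of the heterozygous point, mostly close to it, and the points of Rps3a1 lie farthest apart.

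Differences of a size past 1.2-fold were fewer. Lower by at least 1.2-fold were 17 of 54 canonical genes, against 18.5% of all genes above the minimum, and higher by 1.2-fold were 0 of 54, against 8.32%. Only Rps3a1 was lower by 1.5-fold, a size that 3.17% of all genes reached. Rpl9, at -0.27, lay just inside the 1.2-fold size, and Rpl13, at -0.26, just outside it, so the count of 17 depends on small differences. Small differences in many genes, and large ones in few, made up the pattern.

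In the small subunit 20 of 21 genes were lower, 7 of them by at least 1.2-fold, with a median difference of -0.23. Proteins around the site where the mRNA leaves the subunit included the lowest value. Rps3a1, a protein of that region, was at 10.93 and 10.16, 1.70-fold lower and the lowest difference of all members. Rpsa, another protein of that region, known as the laminin receptor and as the gene mutated in isolated congenital asplenia, was at 13.28 and 12.95 (-0.33). Rps14, a platform protein whose loss of 1 copy marks a form of myelodysplastic syndrome, was at 12.79 and 12.54 (-0.24), and Rps28 at 13.04 and 12.83 (-0.20). All 4 measured genes of this region were lower, with a median of -0.29, beside 20 of 21 in the whole subunit and 59.1% of all genes.

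Around the mRNA entry and the decoding site the values ran from -0.33 to -0.03. Rps3, which lines the entry channel, was at 12.59 and 12.26 (-0.33). Rps9, another entry protein, was at 12.97 and 12.75 (-0.22), Rps15, next to the decoding site, at 13.83 and 13.73 (-0.10), and Rps2 at 13.65 and 13.61 (-0.04). Fau, which encodes a ubiquitin-like protein fused to a small subunit protein and is no member, was at 13.28 and 13.25 (-0.03). These 5 genes had a median difference of -0.10, and no test compared them with the genes at the mRNA exit.

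The head of the small subunit held the only small subunit gene with a higher signal. Rps19, the gene mutated most often in Diamond-Blackfan anaemia, an inherited failure to form red cells, was at 12.13 and 12.27 (0.14). The other 6 measured head genes were lower, with differences of -0.28 for Rps29, -0.23 for Rps12, -0.20 for Rps20, -0.11 for Rps10, -0.10 for Rps15 and -0.02 for Rps18. Rps18 was at 13.46 and 13.44, which is almost level.

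Of the remaining small subunit genes, Rps15a was at 10.59 and 10.12 (-0.47, 1.39-fold lower) and Rps21 at 11.57 and 11.19 (-0.38). Rps4x, encoded on the X chromosome, was at 13.17 and 12.89 (-0.29). Rps7, Rps25 and Rps13 differed by -0.25, -0.23 and -0.21. Rps6, the protein that S6 kinases phosphorylate below mTOR, was at 13.97 and 13.85 (-0.12).

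In the large subunit 29 of 33 genes were lower, 10 of them by at least 1.2-fold, and the median difference was -0.19. The range, -0.43 to 0.12, was narrower than in the small subunit, where Rps3a1 and Rps19 gave -0.77 and 0.14. Whether the subunits differ was not tested, since there is 1 array per genotype. The lowest was Rpl27a, at 12.79 and 12.36 (1.34-fold lower). Rpl8, which reaches into the catalytic centre where peptide bonds form, was at 13.12 and 12.69 (-0.42). Rpl7 was at 12.96 and 12.54 (-0.42) and Rpl36a at 13.28 and 12.89 (-0.39). Rpl14 was at 10.50 and 10.11 (1.31-fold lower).

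The stalk recruits elongation factors to the large subunit and is made of Rplp0, which anchors it, the acidic proteins Rplp1 and Rplp2, and Rpl12 at its base. Rplp0, often used as a reference gene in PCR, was at 13.91 and 13.89, nearly level at -0.02. Rplp1 was at 13.93 and 13.77 (-0.16) and Rpl12 at 10.36 and 10.14 (-0.22). Rplp2 was measured by a single dim cluster, 7.90 and 7.60 (-0.30), and its knockout value lay below the minimum signal. The other 3 stalk genes, above the minimum in both arrays, were all lower, with a median of -0.16. Of all genes above it in both arrays 60.6% were lower.

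Rpl5, which joins the large subunit with Rpl11 and a small ribosomal RNA and with them binds the p53 inhibitor Mdm2, was at 13.47 and 13.14 (-0.34, 1.26-fold lower). Around the tunnel through which the new protein leaves, all 5 measured genes were lower, beside 29 of 33 in the large subunit and 59.1% of all genes. Their median was -0.22 and none passed 1.2-fold, a size that 18.5% of all genes reached. Rpl4 reaches into the tunnel and was at 12.68 and 12.44 (-0.25). Rpl23a, a docking site for factors at the tunnel's exit, was at 12.70 and 12.47 (-0.23), while Rpl19 and Rpl26 differed by -0.11 and -0.04. Rpl22, which alpha-beta T cells need to develop, was at 9.73 and 9.51 (-0.22).

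Other large subunit genes lay between these values. Rpl23, at the face between the subunits, was at 13.18 and 12.88 (-0.30), and Rpl30 at 10.19 and 9.89 (-0.30). Rpl10, which joins late in maturation and is mutated in some T cell leukaemias, was at 14.02 and 13.84 (-0.18). Rpl6, Rpl7a, Rpl24, Rpl37a and Rpl38 differed by -0.19, -0.22, -0.18, -0.17 and -0.15. Rpl21, Rpl28 and Rpl10a differed by -0.10, -0.10 and -0.05. Rpl27 differed by -0.05 in its brightest cluster, by -0.19 in each of a pair of clusters with equal values and by -0.25 in the dimmest. Higher in the knockout were Rpl36 (12.95 and 13.07, 0.12), Rpl34 (11.46 and 11.52, 0.06), Rpl29 (12.70 and 12.75, 0.04) and Rpl41, the smallest ribosomal protein (13.44 and 13.47, 0.03).

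Diamond-Blackfan anaemia has been tied to 21 genes of the list used, of which 11 were members. Of these 11, 10 (90.9%) were lower, Rps19 being the exception, beside 90.7% of all canonical genes and 59.1% of all genes. Their median was -0.20, close to the -0.22 of all canonical genes. Lower by at least 1.2-fold were Rps15a, Rps29, Rpl5 and Rpl8, beside 17 of the 54 canonical genes and 18.5% of all genes.

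Many ribosomal protein genes have processed pseudogene copies, and the array carries several clusters for most of them. Of the 54 canonical genes 38 had several single-symbol clusters, up to 14 for Rps12, and 16 had 1. Clusters of a gene can share probes or sequence and are not replicates: 193 clusters of the 38 genes gave 181 distinct pairs of values. Within each of the 38 genes every cluster lay on the same side of 0. All clusters were lower in 36 genes, and higher in Rpl36, with 9 clusters from 0.10 to 0.15, and in Rpl41, whose 3 clusters held the same values. The range within a gene had a median of 0.08 and a maximum of 0.25, beside an SD of 0.13 between the 38 genes.

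Clusters of a gene that were not the brightest were often lower still. The brightest cluster had the highest difference of its gene in 17 of 38 genes and the lowest in 4. Rpl41, higher in the knockout and with the same values in all its clusters, is counted in both. Rplp1 gave -0.16 in its brightest and -0.42 in its other cluster, Rpl7a gave -0.22 and as low as -0.45, and Rps25 gave -0.23 and as low as -0.47. Which cluster is specific to the parent gene was not tested.

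**Figure D2:**
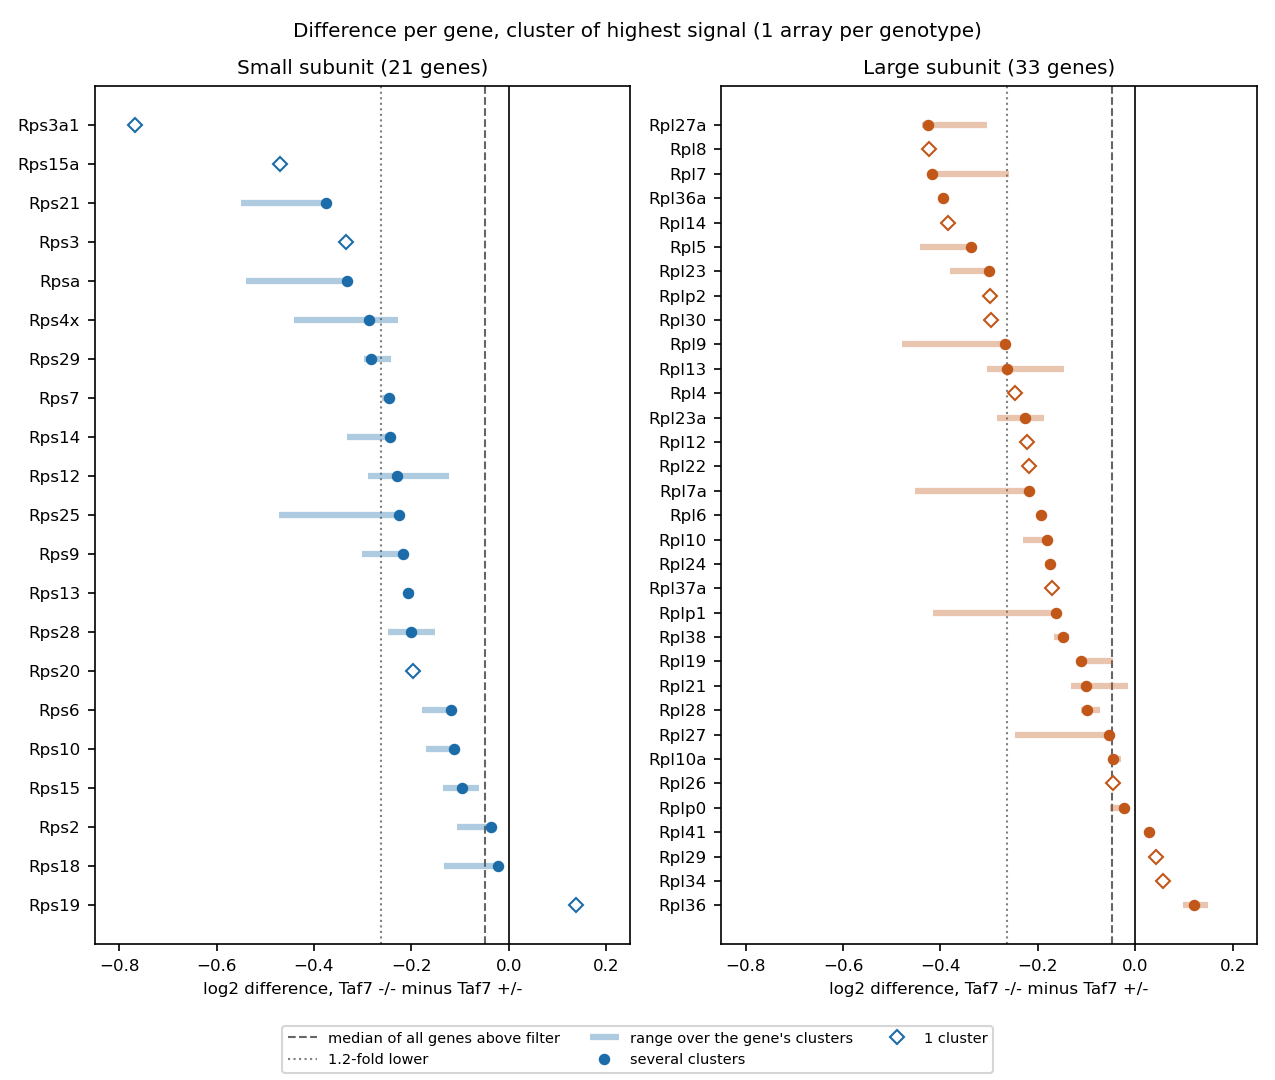
log2 difference, knockout minus heterozygote, of each canonical gene of the small (left) and large (right) subunit, sorted, with 1 array per genotype. Filled points are genes with several clusters and bars give the range over those clusters, open diamonds are genes with 1 cluster, and the lines mark 0, the median of all genes above the minimum (dashed) and 1.2-fold lower (dotted). Rps3a1 stands apart at the top, and only Rps19, Rpl41, Rpl29, Rpl34 and Rpl36 lie above 0.

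Genes with 1 cluster and genes with several were then taken apart. Of the 16 genes with 1 cluster 13 were lower, with a median of -0.23 and an SD between genes of 0.22, and of the 38 with several 36 were lower, with a median of -0.20 and an SD of 0.13. In the small subunit the 5 genes with 1 cluster had a median of -0.33 and the 16 with several -0.22, and in the large subunit the medians were -0.22 for 11 genes and -0.18 for 22. Both the lowest value, Rps3a1, and the highest, Rps19, came from genes with 1 cluster. The 1-cluster genes were also dimmer, with a median signal of 11.70 against 13.10.

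Some canonical genes also appear in clusters annotated to several symbols, where the signal cannot be assigned to 1 gene. Among the 36 canonical genes without such clusters 35 were lower (median -0.22), and among the 18 with them 14 were lower (median -0.19). Within the 16 genes with 1 cluster, the SD was 0.29 for the 9 that also appear in shared clusters, Rps3a1 and Rps19 among them, and 0.09 for the 7 that do not. Of those 7, Rplp2 passed the minimum only through the heterozygous array, and the other 6 were all lower (median -0.29). Of the clusters of several symbols, 237 included a ribosomal protein symbol of the searched form, counting also symbols of genes that are not members. These 237 were lower in 224 (94.5%), with a median of -0.15. Other clusters of several symbols above the minimum were lower in 328 of 594, with a median of -0.04. No gene is named from these clusters.

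The differences varied with signal. Below a mean signal of 11 the 6 canonical genes above the minimum in both arrays were lower (median -0.34), from 12 to 13 there were 16 of 18 (median -0.23), and at 13 and over 23 of 25 (median -0.15). Between 11 and 12 lay 4 genes, 3 of them lower (median -0.11). Other genes in the brightest band were lower in 48 of 88, with a median of -0.02, and 1 of these 88 was lower by 1.2-fold, against 6 of the 25 canonical genes. From 12 to 13 the other genes were lower in 57.9%, with a median of -0.03. From 11 to 12 they were lower in 60.3% (median -0.04), and below 11, with a mean above the minimum, in 58.8% (median -0.05). The 6 canonical genes below 11 each had 1 cluster, so low signal and a single cluster cannot be told apart in them. Across the 54 genes Pearson's r of mean signal and difference was 0.38 and Spearman's rho 0.41, as a description over genes that share both arrays and are not independent, while other genes above the minimum gave -0.09 and -0.14. Compression of bright signals near the top of the scale, 14.56 in both arrays, was not tested.

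**Figure D3:**
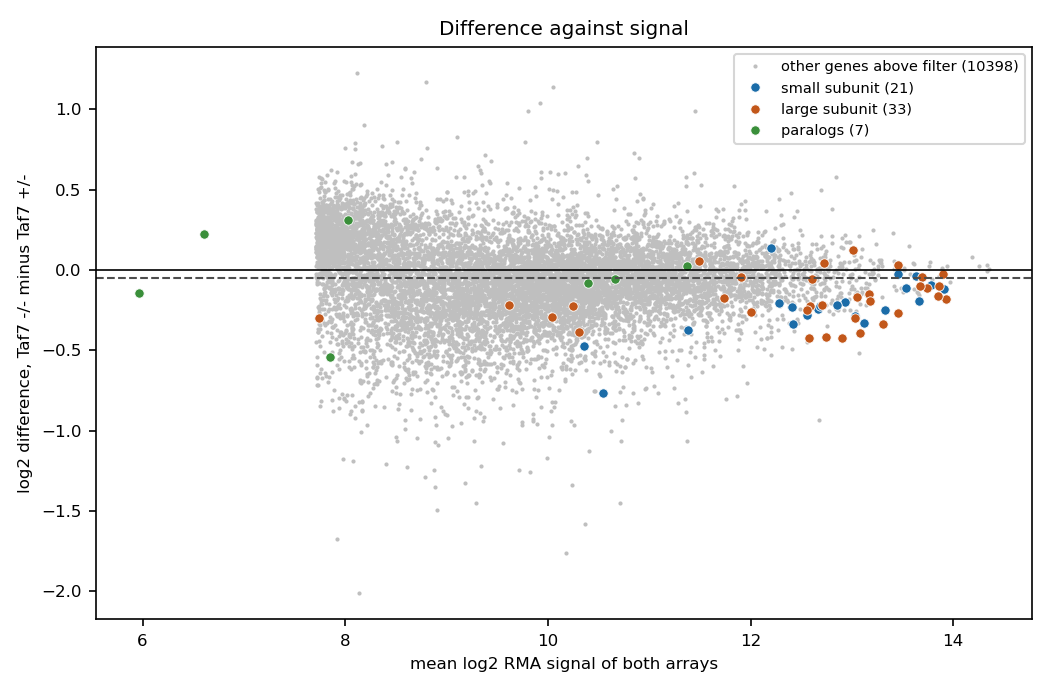
Mean log2 signal of both arrays (horizontal axis) against the log2 difference, knockout minus heterozygote (vertical axis), for the ribosomal protein genes over all other genes above the minimum, 1 array per genotype. The canonical genes sit mostly at signals above 12 and below 0, and those of 13 and over have a median of -0.15 beside -0.02 for other genes as bright.

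Of the 7 paralogs, counted without the minimum signal, 4 (57.1%) were lower and 3 higher, close to the 59.1% lower among all genes above it. Their median difference was -0.06, beside -0.05 for all genes, and 5 of the 7 exceeded the minimum signal. Rps27l, a paralog of Rps27 that p53 induces, was at 10.69 and 10.63 (-0.06). Rpl7l1 was at 11.37 and 11.39 (0.02) and Rpl32l at 10.44 and 10.36 (-0.08). Rpl10l, a retrogene that takes the place of Rpl10 in male germ cells, was dim at 8.12 and 7.57 (-0.54), with its knockout value below the minimum. Rps4l was at 7.87 and 8.18 (0.31) in its brighter cluster and differed by -0.06 in the other, and the reference annotation calls it a transcribed pseudogene. Rpl3l, a muscle form of Rpl3, and Rpl39l, a testis form of Rpl39, lay below the minimum at 6.49 and 6.72, and at 6.04 and 5.89. No value is given for Rpl22l1, whose clusters all carried other symbols too.

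Other genes of the translation machinery were set beside them. Of 77 mitochondrial ribosomal protein genes, all above the minimum, 54 (70.1%) were lower, beside 59.1% of all genes, with a median of -0.14. Lower by 1.2-fold were 23 of the 77, beside 17 of the 54 canonical cytosolic genes and 18.5% of all genes. Lower by 1.5-fold were 4 of the 77, beside 1 of the 54 and 3.17% of all genes. The mitochondrial genes divided into 20 of 29 lower in the small subunit (median -0.17) and 34 of 48 in the large (median -0.12). Of 46 initiation factor genes above the minimum 34 (73.9%) were lower, with a median of -0.11. This set was chosen by symbol alone (Eif and a number). It also holds regulators such as Eif2ak1 and Eif4ebp1, and some of its genes return in the lists below. The cytosolic genes had the lowest of these medians, and whether they differ was not tested.

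**Figure D4:**
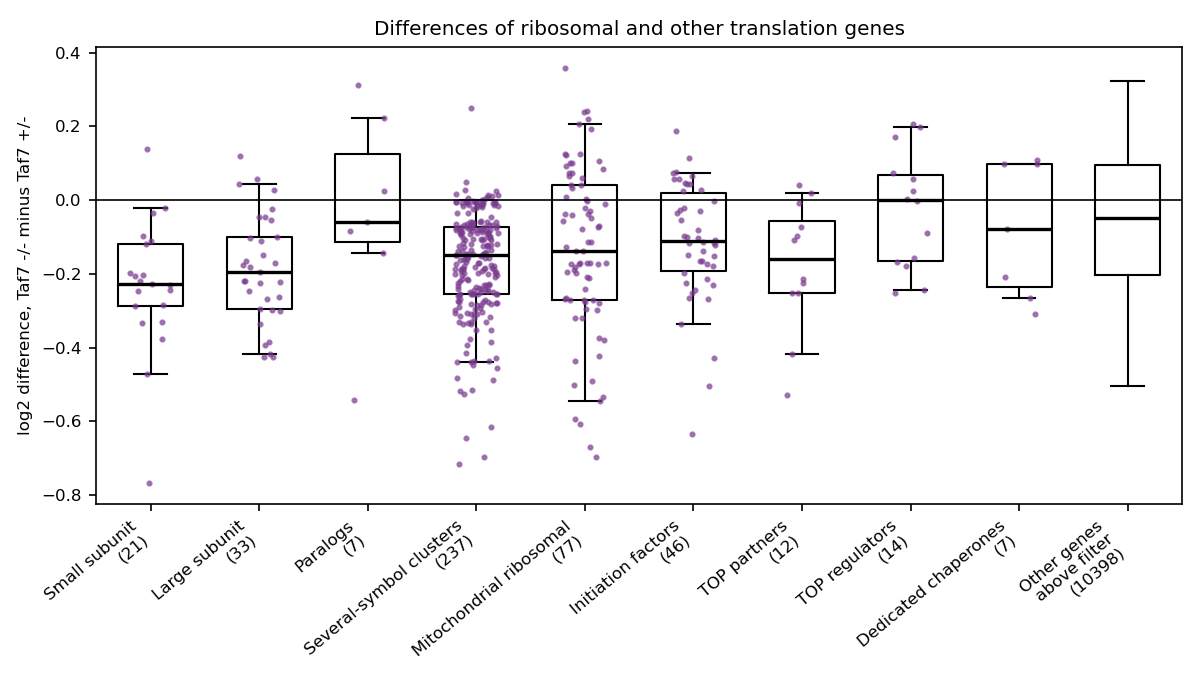
log2 difference, knockout minus heterozygote, of the genes of each family, with 1 point per gene, or per cluster for clusters of several symbols, and 1 array per genotype. Boxes span the quartiles around the median line and whiskers the 5th to 95th percentiles, and the medians are -0.23 for the small and -0.19 for the large subunit, -0.14 for mitochondrial ribosomal proteins and -0.11 for initiation factors.

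Genes whose mRNAs carry the same terminal tract were lower in 10 of 12 measured, beside 59.1% of all genes, with a median of -0.16. Eif3e, Eif3f, Eif3h and Eif4b of this list were also counted among the initiation factors above. Npm1, a nucleolar chaperone of ribosome assembly, was at 11.82 and 11.40 (-0.42), and Nap1l1, a histone chaperone, at 10.49 and 9.96 (-0.53), both past 1.2-fold. The elongation factor genes Eef1b2 and Eef2 differed by -0.25 and -0.11, while Eef1a1 was level at -0.01 and Pabpc1, the poly(A) binding protein, at 0.04. Of 14 measured genes that control these mRNAs, 7 were lower and 7 higher and none passed 1.2-fold: Mtor differed by 0.07, Larp1, which binds the tract, by -0.09, Eif4e by -0.24 and Rheb by -0.25, while Rps6kb2, an S6 kinase, Tial1 and Tia1, which bind the tract, differed by 0.21, 0.20 and 0.17. Of the 7 chaperones dedicated to single ribosomal proteins 4 (57.1%) were lower, close to the 59.1% of all genes. The lowest were Bccip (-0.31) and Tsr2, which escorts Rps26 (-0.27). Higher were Pdcd2 (0.11), Pdcd2l (0.10) and Aamp (0.10).

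Since Taf7 is part of a promoter-bound complex, the promoter sequences of the members are shown for reference. RefSeq promoters on GRCm38.p6 were at hand for 43 of the 54 canonical genes, of which 37 had 1 annotated start. Each window runs from 250 bases before to 50 bases after the start. Printed are the 3 lowest and 3 highest differences among these 37 genes, and Rps6 as the signalling target, each 150 bases long and ending 15 bases after the annotated start, on the gene's strand. Capitals mark CGGAAG or its reverse complement CTTCCG, the core bound by ETS factors such as GABP.
Rps3a1: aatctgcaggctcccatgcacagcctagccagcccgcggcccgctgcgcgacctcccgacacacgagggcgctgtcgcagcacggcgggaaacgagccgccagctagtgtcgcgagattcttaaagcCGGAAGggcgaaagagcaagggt
Rps15a: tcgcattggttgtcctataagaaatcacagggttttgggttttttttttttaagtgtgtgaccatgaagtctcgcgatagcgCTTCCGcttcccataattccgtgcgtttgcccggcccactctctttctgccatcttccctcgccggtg
Rpl27a: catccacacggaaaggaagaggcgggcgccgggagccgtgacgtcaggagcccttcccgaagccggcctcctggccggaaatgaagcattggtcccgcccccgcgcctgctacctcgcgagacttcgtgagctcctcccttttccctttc
Rplp0: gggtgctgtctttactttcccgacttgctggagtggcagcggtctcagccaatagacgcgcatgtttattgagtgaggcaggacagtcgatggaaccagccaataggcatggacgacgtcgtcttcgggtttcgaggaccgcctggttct
Rps18: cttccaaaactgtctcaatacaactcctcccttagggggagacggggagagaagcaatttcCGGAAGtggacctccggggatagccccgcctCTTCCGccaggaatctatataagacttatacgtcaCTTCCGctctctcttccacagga
Rpl41: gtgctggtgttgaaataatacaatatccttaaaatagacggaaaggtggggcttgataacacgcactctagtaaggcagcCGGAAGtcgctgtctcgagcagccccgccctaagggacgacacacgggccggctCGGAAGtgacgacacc
Rps6: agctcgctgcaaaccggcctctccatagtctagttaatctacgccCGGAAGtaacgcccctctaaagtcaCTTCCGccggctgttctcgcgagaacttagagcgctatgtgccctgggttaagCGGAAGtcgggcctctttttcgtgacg
Coordinates are given in the same order: Rps3a1 chr3:86142654-86142803 (minus strand), Rps15a chr7:118116133-118116282 (minus strand), Rpl27a chr7:109519060-109519209 (plus strand), Rplp0 chr5:115559332-115559481 (plus strand), Rps18 chr17:33955651-33955800 (minus strand), Rpl41 chr10:128549154-128549303 (minus strand), Rps6 chr4:86857353-86857502 (minus strand). The printed bases hold 1 ETS core for Rps3a1, 1 for Rps15a, 2 for Rpl41, 3 for Rps18, 3 for Rps6 and 0 for Rplp0. The Rpl27a window has 1 that lies outside the printed bases, and the full Rps18 window has 4.

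Among the 37 genes 28 (75.7%) held an ETS core on either strand, compared with 34.5% of 6719 other genes above the minimum and 17.1% of all 22862 genes with 1 start. A tract of C followed by at least 4 C or T, beginning within 10 bases of the annotated start, was found in 17 of 37 (45.9%), compared with 32.3% and 30.7%. CTTCCG can overlap such a tract, and annotated starts may lie some bases from the one used. AAGATGGC, the YY1 core, was found in 1 gene, Rps15a, and GCGCATGC, the NRF1 core, in 2, both searched on both strands, against 5.66% and 6.07% of other genes above the minimum. TATAAA on the gene's strand from 45 to 15 bases before the start was found in 0 of 37 and in 1.28% of the other genes. A match to letters is no evidence of binding.

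The differences of members with and without these letters were set side by side. Genes with an ETS core had a median difference of -0.21 (27 of 28 lower) and those without -0.26 (9 of 9 lower). With the pyrimidine tract the median was -0.22 (17 of 17 lower) and without it -0.22 (19 of 20 lower). Whether these medians differ was not tested.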

How the data were processed

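Per the submitters' notes, gene-level log2 signals were made by the authors with RMA in Affymetrix Expression Console 1.1 on the core probe set, and the deposited log2 values were used without further scaling. RMA fits both arrays together and can compress differences between them, which was not tested here. Probe names came from the annotation of the platform, in which 21789 of 35556 clusters had 1 symbol, 1621 several and 12146 none, and all 61 members' gene IDs and symbols matched the reference table on GRCm38.p6. The array design named in the labels (an exon array) and the annotation (gene-level clusters) differ in wording. Each gene took its cluster of highest mean. Differences were computed in Python 3.11.15 with pandas 2.3.3 and numpy 2.4.6, after a filter on the mean of both arrays at the 50th percentile of all clusters (7.71), with sizes of 1.2-fold and 1.5-fold and no test, since each genotype has 1 array. The script was tested on simulated data. The number of arrays limits the precision. Every member could be named. The rule gave in full the 5 lowest and 5 highest of each subunit, every paralog, genes with several clusters and the position groups. Genes of the other lists named with values were picked after their values were seen. The members and gene lists were chosen with earlier results of these data known. Alternatives were centring on the median difference, loess (span 0.3), quantile normalization, other filters and other rules for clusters.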

Additional observations from a re-analysis of the deposited data

How the results depend on the processing

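No paired analysis was possible because there is a single array for either genotype. The median difference of the 59 members above the minimum signal was -0.21, and it ranged from -0.23 (cluster of lowest mean) to -0.14 (quantile normalization). Lower members numbered 47 of 59 after centring or loess, beside 49.9% of all genes after loess, and members lower by 1.2-fold numbered 12 (20.3%) after centring or quantile normalization, beside 14.1% and 13.4% of all genes. With clusters averaged they numbered 22 (37.9%, beside 18.6%), against 18 (30.5%, beside 18.5%). Restricted to genes with 1 cluster, 20 members were left: 16 were lower, 8 of them by 1.2-fold, and the small subunit median was -0.33 instead of -0.23. Rps4l was -0.059 instead of 0.31 in its cluster of lowest mean. Of the lower genes, 5 were no longer lower after centring (Rpl10a, Rpl26, Rplp0, Rps2 and Rps18). Chosen after seeing the data, leaving out Rps3a1 gave a median of -0.20 and 17 lower by 1.2-fold, and leaving out the paralogs gave -0.22. The limits are the single array per genotype, an unknown spread between animals, and clusters that may share sequence with pseudogenes.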

Other observations

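Outside the ribosomal protein genes, 86 other genes above the minimum signal had TATAAA from 45 to 15 bases before their annotated start. Of these, 22 were lower in the knockout, and their median difference was 0.14. Of the 6633 without it 3931 were lower, with a median of -0.05. The median signals with and without it were 9.34 and 9.75. This set was noticed among the motif counts and has no test.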
